A study of Mus musculus with 28 samples.

Results

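The 10 genes described here act below tumour necrosis factor (TNF) receptors or feed back on the NF-kB pathway. They are the adaptors Traf1, Traf2 and Traf3, the ubiquitin ligases Birc2 and Birc3, the kinase Ikbke, and the feedback regulators Tnfaip3, Tnip1, Zc3h12a and Cyld. They were taken by symbol from the table of normalized counts through their mouse Ensembl identifiers, and all 10 were found among its 30608 genes. RNA was sequenced from CTLL2, a line of mouse cytotoxic T cells labelled as strain C57BL/6, which grows on interleukin-2. All cells were moved to fresh complete medium at time 0. Cells given B16F0 exosomes, small vesicles released by a mouse melanoma line, at 0.2 mg/ml in that medium were sampled at 0.5, 2, 4 and 8 h (n = 3 libraries each). The untreated groups are 4 libraries taken at 0 h and 3 taken at each of those later times. The labels do not say whether untreated cells received the exosomes' carrier, PBS, and they name replicates biological. By the descriptions, batch 2 holds 19 of the 28 libraries and batch 1 holds 9, which is 1 per group, so levels of the genes that the results turn on are given by batch.

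When a TNF receptor binds its ligand, TRAF adaptors bring the cellular inhibitor-of-apoptosis ligases Birc2 and Birc3 to the receptor, and the ubiquitin chains they build help to activate IkB kinases and NF-kB. NF-kB then raises the transcripts of several of its own brakes, among them the ubiquitin-editing enzyme A20 (Tnfaip3) and the inhibitor IkB-alpha (Nfkbia). In T cells the same adaptors serve costimulatory receptors of the TNF receptor family.

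The 28 libraries held between 6072984 and 24085812 reads in genes, with a median of 16066276. All 11 cytotoxic T cell markers examined were present, and their summed level ran from 124669 to 177019 normalized counts in exosome-treated libraries and from 122107 to 180728 in untreated ones of both batches. Normalized counts are reads divided by 1 size factor per library. Of 9 melanocyte markers, 5 were tested and 4 were higher with exosomes. Their sum ran from 59.8 to 176 normalized counts in exosome-treated libraries and from 7.45 to 20.7 in untreated ones, in which the pigment enzyme Tyrp1 was at 0. The sum of 8 skeletal muscle markers ran from 679 to 3083 with exosomes and from 518 to 2052 without, and 8 libraries had 10 or more normalized counts of the muscle actin Acta1. None of 8 muscle, 3 macrophage or 4 fibroblast markers tested was called by limma, edgeR or DESeq2 for the mean exosome effect, and none of them had an unadjusted p below 0.05. RNA carried by exosomes and RNA made by the T cells were not measured apart, and the part of either in the results below was not tested. In RNA from whole cultures, fewer cells expressing a gene and less RNA per cell cannot be told apart.

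Per kilobase of annotated exon, Tnip1 had the highest level of the 10 genes, with a mean of 441 ± 65.5 normalized counts per kb (SD, n = 28 libraries). Tnip1 encodes ABIN-1, a ubiquitin-binding partner of A20. Cyld, a deubiquitinating enzyme, followed at 215 ± 16.8, Birc2 at 206 ± 29.2 and Traf1 at 190 ± 23.0 per kb. From Cyld to Traf1, neighbours differed by less than 1 SD. Ikbke (151 ± 18.3), Traf3 (132 ± 16.4), Birc3 (128 ± 12.9), Zc3h12a (113 ± 18.9) and Traf2 (108 ± 9.18) came next, and neighbours from Ikbke to Traf2 differed by less than the larger of their SDs. Tnfaip3 stood far below at 6.40 ± 4.63 per kb. Its libraries held between 16 and 153 reads, so counting error weighs more on Tnfaip3 than on the others, whose libraries held at least 142 reads. Tnfaip3 also varied most, with 11.2 times as many normalized counts in its highest library as in its lowest, whereas the same ratio ran from 1.35 for Traf2 to 1.87 for Zc3h12a. Exons of Ikbke overlap the antisense genes Gm28913 and Gm28914, and whether counting used the strand is not given in the sources used here, so the level of Ikbke is uncertain to that extent.

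In the GENCODE M21 annotation of GRCm38, Traf3 lies at chr12:111166370-111267153 on the plus strand, and Tnfaip3 at chr10:19000910-19015657, Tnip1 at chr11:54910785-54962917 and Zc3h12a at chr4:125118423-125127840 lie on the minus strand. Sequences at the RefSeq start sites of these 4 genes are shown because NF-kB binds decameric kB motifs near many of its targets. Tnfaip3 and Traf3 were called over all libraries, and Tnip1 and Zc3h12a are feedback regulators with and without a match. They come from RefSeq on build GRCm38.p6 and are written 5′ to 3′ on the gene's own strand, with matches to the kB consensus in capitals. Traf3 is shown for chr12:111166120-111166369 (plus strand), Tnip1 for chr11:54962941-54963190 (minus), Zc3h12a for chr4:125127882-125128131 (minus) and Tnfaip3 for chr10:19015403-19015432 (minus). The first 3 of these end at the base before the RefSeq start site, and the shorter Tnfaip3 stretch runs across it.
Traf3: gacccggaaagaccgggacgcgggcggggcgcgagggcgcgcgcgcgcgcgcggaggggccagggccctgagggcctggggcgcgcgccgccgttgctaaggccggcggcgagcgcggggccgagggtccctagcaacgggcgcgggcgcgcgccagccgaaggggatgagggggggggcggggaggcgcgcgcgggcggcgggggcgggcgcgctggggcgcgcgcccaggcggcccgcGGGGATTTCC
Tnip1: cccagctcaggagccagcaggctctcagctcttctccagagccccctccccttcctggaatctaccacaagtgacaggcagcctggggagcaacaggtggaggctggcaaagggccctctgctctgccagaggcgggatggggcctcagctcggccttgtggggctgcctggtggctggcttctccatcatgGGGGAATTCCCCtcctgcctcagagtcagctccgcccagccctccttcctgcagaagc
Zc3h12a: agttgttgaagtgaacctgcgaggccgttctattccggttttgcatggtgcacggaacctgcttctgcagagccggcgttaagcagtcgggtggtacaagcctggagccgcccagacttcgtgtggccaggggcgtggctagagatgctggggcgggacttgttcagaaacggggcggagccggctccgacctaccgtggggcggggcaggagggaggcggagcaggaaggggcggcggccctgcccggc
Tnfaip3: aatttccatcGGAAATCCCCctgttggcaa
Each gene was searched on both strands from 250 bases before to 50 bases after its start sites, and the 10 genes had 12 such windows. The kB consensus was found in 4 of the 10 genes (Tnfaip3, Tnip1, Traf3 and Cyld), and it occurs in 8.46% of all 32851 promoter windows and in 9.55% of 27025 genes. Traf3 had GGGGATTTCC immediately before its start site, Tnip1 had 3 overlapping matches in the capitals shown, and Tnfaip3 had 2 matches, of which the one nearer its start site is shown. The windows of Zc3h12a, Traf1, Traf2, Ikbke, Birc2 and Birc3 held no match. A match describes letters in these windows and not binding.

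The first question was whether exosomes changed these transcripts over the 4 times. All 10 genes had a positive mean difference between exosome-treated and untreated libraries, from 0.03 for Cyld to 0.72 for Tnfaip3 on the log2(normalized count + 1) scale, with a median of 0.11 against -0.001 over all genes tested. Called here means an adjusted p below 0.05 in limma, fitted over 14828 genes with treatment-by-time groups and batch as terms. By that rule Tnfaip3 and Traf3 were higher with exosomes than in untreated cells of the same times. That is 2 of 10 genes, where 0.459% of all genes tested were called higher. The other 8 were not called. At single times the calls were fewer. Exosomes gave 0 called of 10 at 0.5, 2 and 4 h, where 0.243%, 0.189% and 0.155% of all genes were called higher, and edgeR and DESeq2 on whole reads also gave 0 at these times. At an unadjusted p below 0.05 the counts at these times were 0, 0 and 5. The share of all genes at that unadjusted threshold is not given here, so these and later unadjusted counts are not read as a result about the 10. At 8 h Traf3 alone was called, 1 of 10, where 0.391% of all genes were called higher and 0.0607% lower. A moderated F test for an exosome effect that differs between times called 0 of 10 and 0.0% of all genes with limma, 0 of 10 with edgeR and with DESeq2, and had an unadjusted p below 0.05 for 2, Birc3 and Traf3.

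**Figure D1:**
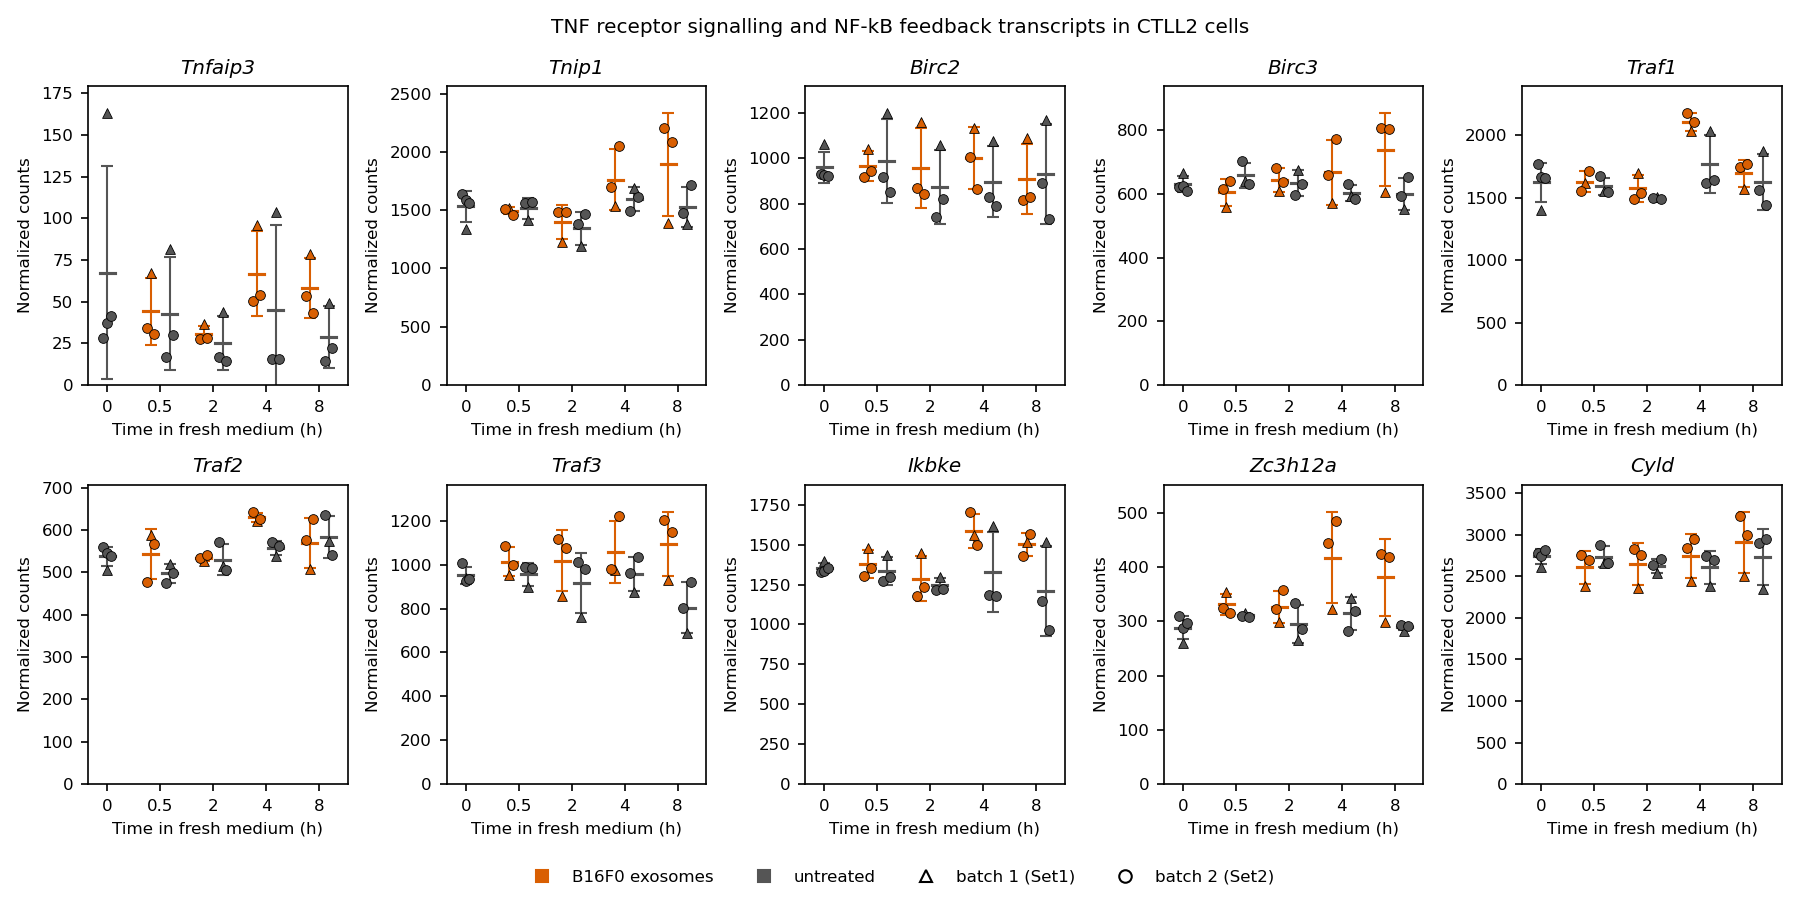
Normalized counts of the 10 genes (y axis, linear from 0) against time in fresh medium (x axis, h) in exosome-treated (orange, left) and untreated (grey, right) CTLL2 libraries. Circles are batch 2 and triangles batch 1, and the horizontal lines and bars are group means ± SD, cut at 0 for Tnfaip3 in untreated cells at 4 h. The circles of exosome-treated cells stand above those of untreated cells at every time for Tnfaip3. At both 4 and 8 h they also do so for Tnip1, Birc3, Traf1, Ikbke, Zc3h12a and Cyld, most of which separate at an earlier time too. The triangles of Tnfaip3 do so only at 8 h.

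Among the adaptors, Traf3 was the one called over all libraries. Traf3 joins Traf2, Birc2 and Birc3 in a complex that keeps the NF-kB-inducing kinase low. At 8 h the exosome-treated libraries had 1203 and 1149 normalized counts in batch 2 and 929 in batch 1, against 803 and 921 in batch 2 and 687 in batch 1 in untreated cells. All 3 exosome-treated libraries stood above all 3 untreated ones, and the share of all genes separated in this way is not given here. At 0 h Traf3 had 925 to 1005 in batch 2 and 940 in batch 1. The treated libraries at 8 h were above the 0 h level in batch 2 and not in batch 1, and the untreated ones were below it in both. Exosome-treated cells were not tested against 0 h. The log2 fold change between treated and untreated cells at 8 h was 0.45 ± 0.08 (SE, limma adjusted p = 0.0098), and it was 0.45 within batch 2 and 0.44 within batch 1. Over the 4 times it was 0.20 ± 0.04 (limma adjusted p = 0.0142), and in each batch and at each time the exosome-treated mean was the higher one. The call over 4 times held without any 1 library (limma adjusted p at most 0.0423). It was lost in batch 2 alone (0.20, limma adjusted p = 0.0732), with a filter at a mean of 50 normalized counts (limma adjusted p = 0.0638) and without the batch term. The call at 8 h was lost without untreated replicate 1, untreated replicate 2 or exosome-treated replicate 2 of that time (limma adjusted p of 0.075, 0.101 and 0.069), and without the Acta1 libraries (0.31, limma adjusted p = 0.7), which leaves 1 untreated library at 8 h.

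Traf1, an adaptor that is itself a known NF-kB target, was higher with exosomes at 4 and 8 h in batch 2 and not in batch 1. At 4 h it had 2175 and 2101 normalized counts in exosome-treated libraries of batch 2, against 1620 and 1645 in untreated ones. In batch 1 it had 2032 with exosomes and 2037 without, where the untreated 0 h library of that batch had 1402. At 8 h it had 1748 and 1768 with exosomes against 1558 and 1438 without in batch 2, and 1572 against 1874 in batch 1. The all-library difference was 0.26 ± 0.09 at 4 h (limma adjusted p = 0.92). Traf2, which carries the RING-type domain and recruits Birc2 and Birc3, had 642 and 626 normalized counts with exosomes at 4 h in batch 2 and 621 in batch 1, against 571 and 563 without in batch 2 and 538 in batch 1. These groups did not overlap, yet the difference of 0.18 ± 0.08 was not called (limma adjusted p = 0.92), and at 8 h it was -0.04 ± 0.08. The share of all genes without such overlap over both batches at 4 h is not given here.

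The ligases Birc2 (cIAP1) and Birc3 (cIAP2) were not called by limma at any time. In batch 2 Birc2 averaged 885 ± 65.5 normalized counts in exosome-treated libraries and 821 ± 66.2 in untreated ones of the same times (SD, n = 8 each), and in batch 1 it averaged 1105 ± 51.6 and 1125 ± 69.2 (SD, n = 4 each). Its mean log2 difference of 0.06 had a 95% interval from -0.02 to 0.15. For Birc3 the batch 2 libraries at 8 h separated, with 808 and 803 in exosome-treated cells against 594 and 652 in untreated cells, while batch 1 had 607 against 554. The all-library difference at 8 h was 0.29 ± 0.09 (limma adjusted p = 0.0835), and DESeq2 on whole reads called it. Cyld, which removes ubiquitin chains from receptor complexes, had the smallest mean difference of the 10, 0.03 with a 95% interval from -0.04 to 0.09. It averaged 2879 ± 170 with exosomes and 2770 ± 122 without in batch 2 (SD, n = 8 each), and 2422 ± 65.8 and 2482 ± 146 in batch 1 (SD, n = 4 each).

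Ikbke, an IkB kinase relative that also acts in interferon induction, had 1703 and 1496 normalized counts in exosome-treated libraries of batch 2 at 4 h, against 1188 and 1180 in untreated ones. At 8 h it had 1427 and 1565 against 1148 and 966. In batch 1 it had 1558 with exosomes and 1617 without at 4 h, and 1514 in both at 8 h. The treated libraries of batch 2 were the higher ones at both times, and those of batch 1 at neither. At 0 h Ikbke had 1328 to 1356 normalized counts in batch 2 and 1396 in batch 1. At 4 and 8 h in batch 2, treated libraries were above that range and untreated ones below it, so part of the difference is a fall of untreated cells. Exosome-treated cells were not tested against 0 h. The mean difference of Ikbke over the 4 times was 0.17 ± 0.05 (limma adjusted p = 0.194), and it was called without untreated 4 h replicate 2 (0.0465) or untreated 8 h replicate 1 (0.0144).

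Tnfaip3 showed the largest relative difference of the 10 genes and the strongest split by batch. In batch 2 it had 34.2 and 30.9 normalized counts with exosomes at 0.5 h against 17.1 and 30.2 without, 27.6 and 28.3 against 16.8 and 14.6 at 2 h, 50.2 and 54.0 against 15.5 and 15.6 at 4 h, and 53.3 and 43.0 against 14.6 and 22.3 at 8 h. In batch 1 it had 67.3 with exosomes and 81.3 without at 0.5 h, 36.5 and 43.7 at 2 h, 95.9 and 104 at 4 h, and 78.4 and 49.5 at 8 h. Every exosome-treated library of batch 2 was above both untreated libraries of its time, whereas in batch 1 the treated library was the lower one until 8 h. At 0 h, before exosomes, Tnfaip3 had 28.3 to 41.5 normalized counts in batch 2 and 163 in batch 1. With exosomes, batch 2 was within or below that range at 0.5 and 2 h and above it at 4 and 8 h. Batch 1 was below 163 at every time. Exosome-treated cells were not tested against 0 h. The mean effect over all libraries was 0.72 ± 0.17 (limma adjusted p = 0.048). That call is borderline: edgeR did not make it (adjusted p = 0.317), DESeq2 did (0.0352), and it was lost in 21 of 28 fits that left out 1 library (limma adjusted p up to 0.137). It held without untreated 0 h replicate 1 or 2, untreated 4 h replicate 2, untreated 8 h replicate 3, or exosome-treated replicate 2 at 2 h, replicate 2 at 4 h or replicate 1 at 8 h.

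In batch 2 Zc3h12a and Tnip1 stood further apart at 4 and 8 h than at 0.5 and 2 h. Zc3h12a encodes Regnase-1, an RNase that degrades inflammatory mRNAs. In batch 2 it had 325 and 316 normalized counts with exosomes against 310 and 308 without at 0.5 h, 323 and 358 against 335 and 286 at 2 h, 444 and 485 against 282 and 319 at 4 h, and 425 and 419 against 293 and 292 at 8 h. Batch 1 had 354 against 316, 298 against 266, 324 against 343 and 299 against 283 at these times. At 8 h all treated libraries were above all untreated ones, the batch 1 library narrowly, and the share of all genes separated so is not given here. The all-library mean effect was 0.25 ± 0.06 and just missed the threshold (limma adjusted p = 0.0616), while DESeq2 called it (0.0178) and edgeR did not (0.0723). Limma called it without untreated replicate 2 of 2 or 4 h, or without exosome-treated replicate 2 of 4 h or replicate 1 of 8 h (adjusted p from 0.0088 to 0.0446). Tnip1 in batch 2 had 1510 and 1459 with exosomes against 1563 and 1572 without at 0.5 h, 1484 and 1487 against 1380 and 1468 at 2 h, 1702 and 2050 against 1489 and 1610 at 4 h, and 2202 and 2085 against 1478 and 1717 at 8 h. In batch 1 Tnip1 had 1515 against 1413, 1230 against 1192, 1535 against 1691 and 1389 against 1385 at these times. The treated libraries of batch 2 were thus the lower ones at 0.5 h and the higher ones from 2 h on.

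Whether exosomes acted differently in the batches was tested as an interaction in a model with 1 mean exosome effect per batch. In batch 2 the mean effect was 1.11 ± 0.15 for Tnfaip3 (limma adjusted p = 3.62e-05) and 0.32 ± 0.07 for Zc3h12a (0.0199), 2 of 10 called against 0.479% of all genes higher. In batch 1 it was -0.05 ± 0.20 for Tnfaip3 and 0.11 ± 0.09 for Zc3h12a, with 0 of 10 called by limma, edgeR or DESeq2 where 0.216% of all genes were called higher, 0.0135% lower and 0.229% in either direction, and an unadjusted p below 0.05 for 1, Traf3. The difference, batch 2 minus batch 1, was 1.16 ± 0.25 for Tnfaip3 (unadjusted p = 8.82e-05, limma adjusted p = 0.166) and 0.25 ± 0.08 for Birc3 (unadjusted p = 0.00435, adjusted p = 0.858). It was called for 0 of 10 by limma, which called 0.0337% of all genes, and by edgeR, and for 1, Tnfaip3, by DESeq2. It was 0.04 ± 0.09 for Traf3. The batch 2 call of Tnfaip3 held without any 1 library (limma adjusted p at most 0.000208). That of Zc3h12a was lost in 8 of 28 such fits (up to 0.0826), those without untreated replicates 2 or 3 of 0.5 h, 3 of 2 h or 1 of 4 h, or without exosome-treated replicates 3 of 2 h, 3 of 4 h, or 2 or 3 of 8 h. Batch 1 has 1 library per group, so its differences at single times have no replicate check.

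**Figure D2:**
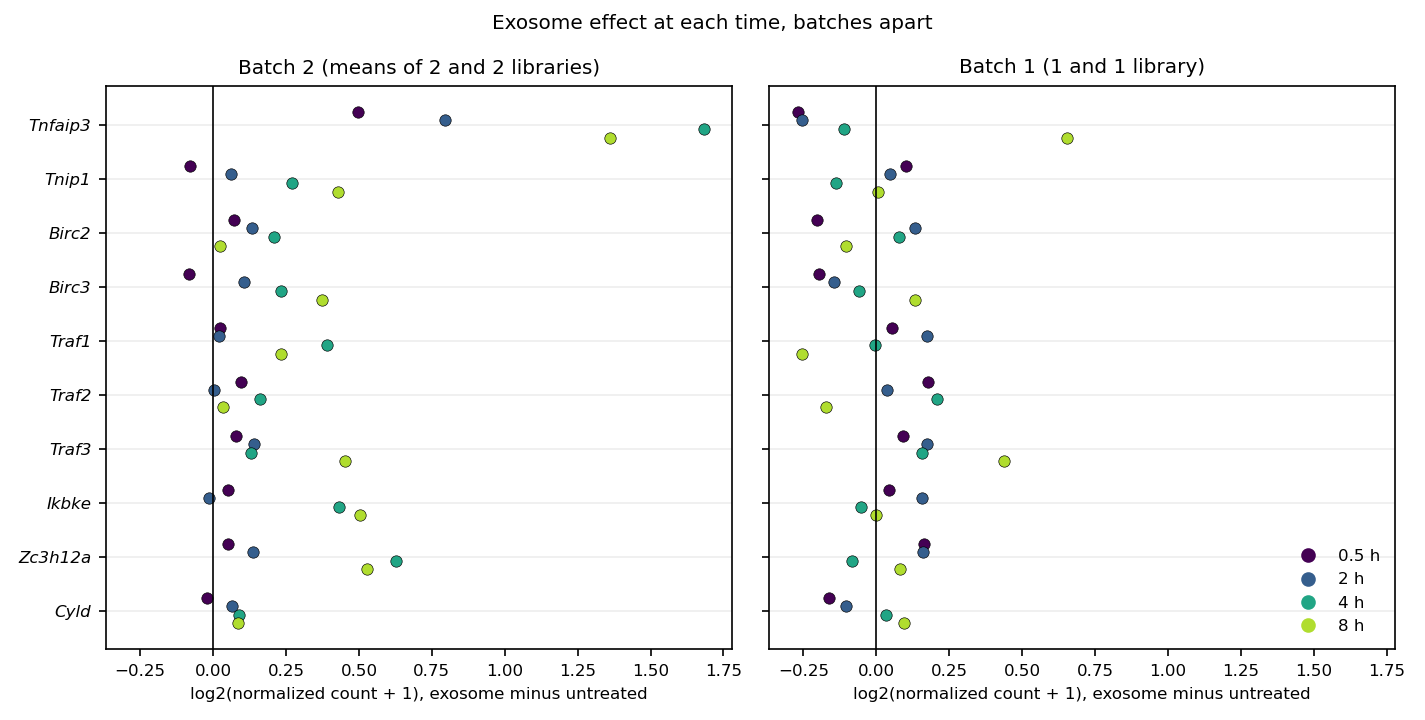
Exosome-treated minus untreated difference (x axis, log2(normalized count + 1)) for each gene (y axis) at each time, coloured by time, in batch 2 (left, means of 2 libraries against 2) and batch 1 (right, 1 library against 1). In batch 2 the 4 h and 8 h points of Tnfaip3 lie at 1.68 and 1.36, and in batch 1 at -0.11 and 0.65.

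The batch 2 libraries were then fitted alone, a choice made after the batch split had been seen. At 4 h exosome-treated libraries exceeded untreated ones by 1.68 ± 0.27 for Tnfaip3, 0.63 ± 0.09 for Zc3h12a, 0.43 ± 0.08 for Ikbke and 0.39 ± 0.07 for Traf1 (limma adjusted p of 0.00744, 0.00405, 0.0205 and 0.0105). That is 4 of 10 genes, where 0.243% of all genes were called higher and 0.0202% lower. At 8 h exosome-treated libraries were higher for Tnfaip3 (1.36 ± 0.27), Zc3h12a (0.53 ± 0.09), Ikbke (0.50 ± 0.08), Traf3 (0.45 ± 0.09) and Tnip1 (0.43 ± 0.08), 5 of 10 against 0.357%, with limma adjusted p from 0.00437 to 0.0414. At 0.5 and 2 h limma and edgeR called 0 of 10, and the unadjusted p was below 0.05 for 0 and for 1, Tnfaip3. The mean effect was called for 4 of 10 (Tnfaip3, Zc3h12a, Ikbke and Traf1), where 0.56% of all genes were called higher and 0.00674% lower. The F test for a difference between times called 0 of 10 in these libraries and 3 of 14828 genes tested. Its unadjusted p was below 0.05 for 7 of the 10, whose limma adjusted p ran from 0.732 to 0.754. The share of all genes with such an unadjusted p is not given here. Leaving out 1 library moved these counts and those over all genes. Where it came from an exosome-treated or later untreated group, that group kept 1 library, which is assumed to vary like the others. At 4 h it was 0 without untreated replicate 1, and 1, Zc3h12a, without untreated replicate 3 or exosome-treated replicate 1. At 8 h it was 0 without exosome-treated replicate 3, and 1, Ikbke, without untreated replicate 2 or exosome-treated replicate 2. It was 2 or 3 at 8 h without any 1 library of untreated 0, 0.5 or 2 h or exosome-treated replicate 2 or 3 of 0.5 h or 1 or 3 of 2 h. It was 6 at 8 h without untreated replicate 3, a fit that called 1083 of all genes in either direction against 53 with all batch 2 libraries, and 6 without either exosome-treated library of 4 h. At 4 h it stayed at 4 without exosome-treated replicate 3, where 268 of all genes were called against 39. The calls for the mean effect also moved without exosome-treated 4 h replicate 1, which leaves 1 library in that group.

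By position alone, both exosome-treated libraries of batch 2 stood above both untreated ones for 4, 6, 9 and 8 of the 10 genes at 0.5, 2, 4 and 8 h. Over all genes tested the shares were 17.0%, 17.8%, 18.4% and 16.2%. Both stood below for 1, 0, 0 and 0 of the 10, against 14.9%, 16.5%, 15.8% and 18.8% of all genes. The gene below at 0.5 h was Tnip1, the one not above at 4 h was Traf3, and those not above at 8 h were Birc2 and Traf2. In batch 1 the single exosome-treated library was above the untreated one for 6, 7, 4 and 6 of the 10, against 50.2%, 49.5%, 49.7% and 50.9% of all genes, so the counts there were near the background. Muscle markers summed to 3083 and 728 normalized counts in exosome-treated replicates 1 and 3 of 4 h, both of batch 2, and to 1955 and 772 in untreated replicates 2 and 3 of 8 h. Their part in these differences was not tested.

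Genes around the 10 in the pathway were compared by lists. The lists were chosen with earlier results of these data known, so counts on them describe and do not test. Over all libraries the mean exosome effect was called for 1 of 11 NF-kB subunits and IkB proteins, Nfkb2, the precursor of the noncanonical subunit p52 (0.34 ± 0.06, limma adjusted p = 0.00164), and the list's median was 0.14. None was called among 8 TNF superfamily ligands, 9 TNF receptors, 25 receptor-complex and IkB kinase components, 16 ubiquitin-editing partners or 5 Regnase-1 targets, by limma, edgeR or DESeq2. An unadjusted p was below 0.05 for 1, 0, 1, 0 and 1 of them, and their medians ran from 0.006 to 0.09. Batch 2 alone is a subset chosen after the batch split had been seen. In it, 5 of 11 NF-kB subunits and IkB proteins were higher with exosomes at 4 h, against 0.243% of all genes. These were the noncanonical subunit Relb (1.54 ± 0.13), the inhibitor Nfkbia (1.22 ± 0.08), the coactivator Bcl3 (0.81 ± 0.11), Nfkb2 (0.78 ± 0.07) and the nuclear IkB protein Nfkbiz (0.60 ± 0.10), with limma adjusted p of at most 0.00897. Nfkbiz is also on the Regnase-1 target list and was the 1 of its 5 genes called.

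The levels behind these values split by batch as those of Tnfaip3 did. Relb had 595 to 641 normalized counts with exosomes and 208 to 216 without at 4 h in batch 2, and 181 against 199 in batch 1. Nfkbia had 973 to 985 against 409 to 431 in batch 2, and 370 against 412 in batch 1. In both genes only batch 2 separated upward. At 8 h in batch 2, 4 of 11 of this list were higher with exosomes (Relb, Nfkbia, Nfkb2 and Bcl3), against 0.357% of all genes. The ligands, receptors, receptor-complex components and ubiquitin-editing partners had 0 called by limma at 4 and at 8 h in batch 2 alone. Their unadjusted p was below 0.05 for 3, 0, 3 and 2 at 4 h and for 1, 2, 2 and 1 at 8 h, and other tools were not run on these lists there. At the early times in batch 2 alone, the adaptor Traf4 was called at 0.5 h (0.38 ± 0.08, limma adjusted p = 0.0322), 1 of 25 receptor-complex components against 0.357% of all genes called higher, and Nfkbia at 2 h (0.52 ± 0.08, limma adjusted p = 0.00653), 1 of 11 of its list against 0.189%. The F test for a difference between times called Relb, Nfkbia and Nfkb2 there (limma adjusted p at most 0.00184).

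**Figure D3:**
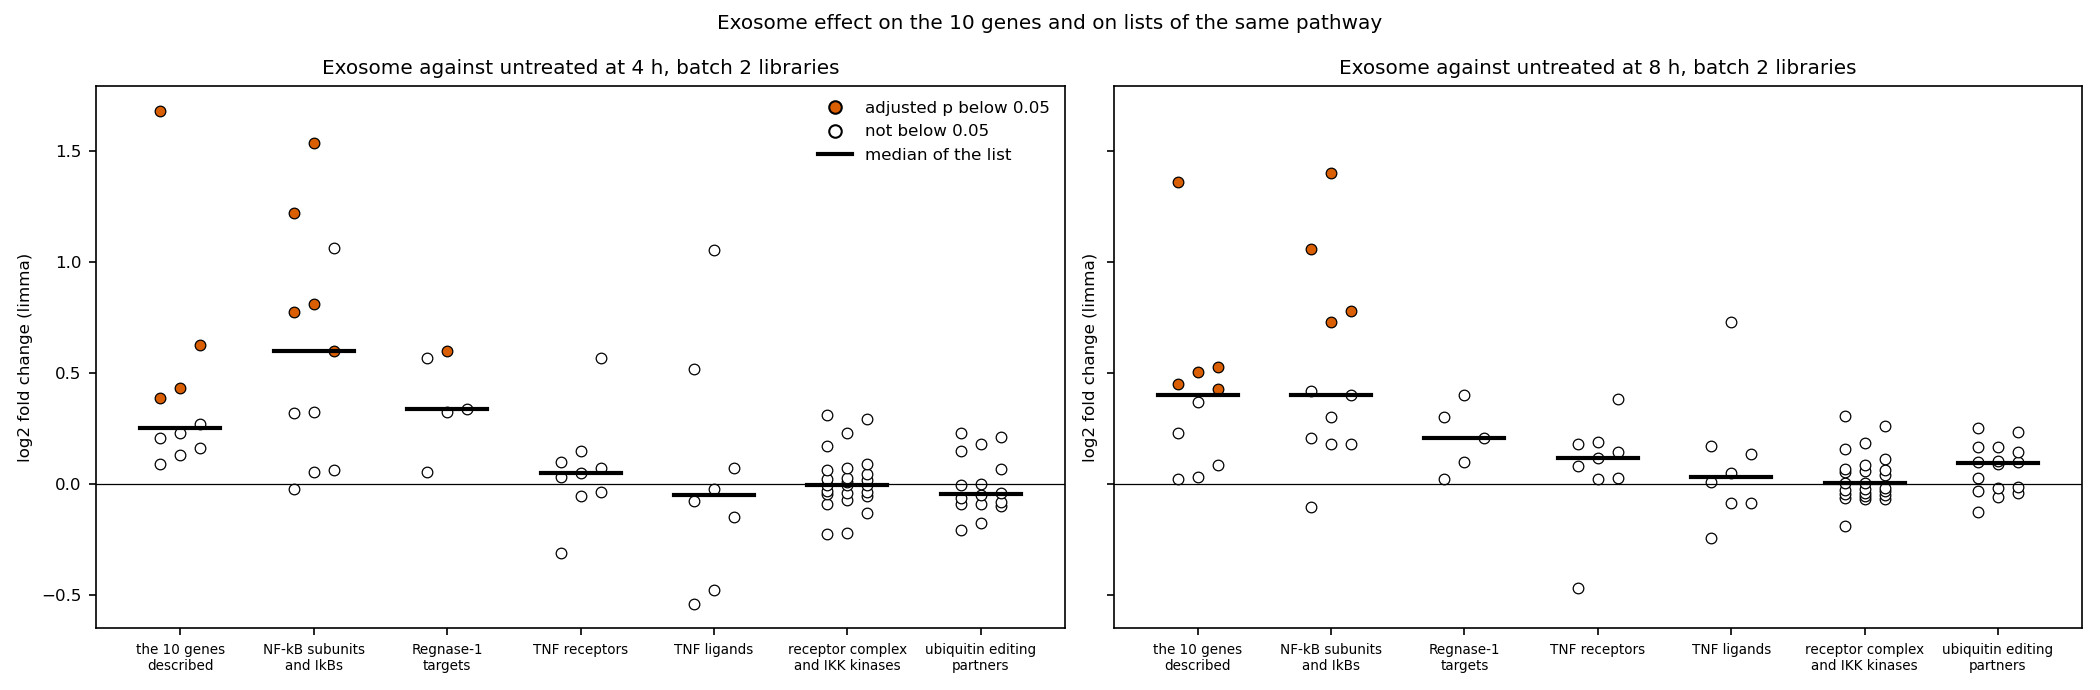
Log2 fold change of exosome-treated against untreated cells in batch 2 libraries (y axis) for the 10 genes and 6 lists of the pathway (x axis) at 4 h (left) and 8 h (right). Each point is a gene, filled where the limma adjusted p is below 0.05, and the bar is the list's median. The medians of the 10 genes are 0.25 and 0.40 and those of NF-kB subunits and IkB proteins 0.60 and 0.40, while those of the ligands, receptors, receptor-complex components and ubiquitin-editing partners lie between -0.05 and 0.12.

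In untreated cells the question was how fresh medium alone moved these genes relative to 0 h. Tnfaip3 fell. In batch 2 it had 28.3, 37.0 and 41.5 normalized counts at 0 h, 17.1 and 30.2 at 0.5 h, 16.8 and 14.6 at 2 h, 15.5 and 15.6 at 4 h, and 14.6 and 22.3 at 8 h. In batch 1 it had 163 at 0 h, then 81.3, 43.7, 104 and 49.5. The change against 0 h was -1.30 ± 0.31 at 2 h (limma adjusted p = 0.0289), -0.90 ± 0.31 at 4 h (0.216) and -1.12 ± 0.31 at 8 h (0.0106). At 2 h that is 1 of 10 genes, where 1.0% of all genes were called lower and 1.83% in either direction. At 8 h Tnfaip3 and Traf3 (-0.23 ± 0.08, limma adjusted p = 0.0276) are 2 of 10, where 15.8% were called lower and 31.7% in either direction. Limma, edgeR and DESeq2 called 0 of 10 at 0.5 h and at 4 h, where limma called 0.189% (0.0202% lower) and 1.19% of all genes in either direction, and the unadjusted p was below 0.05 for 1, Tnfaip3, at each. The untreated 0 h library of batch 1 weighs on these values. Without it the change of Tnfaip3 was -1.07 at 2 h (limma adjusted p = 0.092) and -0.88 at 8 h (0.0501), and that of Traf3 at 8 h was -0.17 (0.112). Without the Acta1 libraries, which leaves 1 untreated library at 8 h, neither 8 h call was made (Tnfaip3 -0.73, limma adjusted p = 0.359, and Traf3 -0.09, 0.603). The call at 2 h was also lost without untreated 0 h replicate 3 or 4 or any untreated 2 h replicate, and that of Tnfaip3 at 8 h without untreated 8 h replicate 2 (-0.96, limma adjusted p = 0.0693). Traf3 at 8 h lost its call, too, without untreated 0 h replicate 2 or untreated 8 h replicate 1 or 2 (limma adjusted p from 0.0558 to 0.126). In batch 2 alone the fall of Tnfaip3 was called at 2, 4 and 8 h (-1.12, -1.13 and -0.93), 1, 1 and 3 of 10 genes lower against 1.56%, 2.56% and 13.0% of all genes. The others at 8 h were Ikbke (-0.35 ± 0.07) and Traf1 (-0.18 ± 0.06). The batch 2 call at 2 h was lost without untreated 0 h replicate 3 or 4 or untreated 2 h replicate 2 or 3, and that at 4 h without untreated 0 h replicate 4 or untreated 4 h replicate 1 or 3.

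Genes on the other pathway lists were also compared with 0 h in untreated cells. At 0.5 h the ligand Tnf had 463 to 476 normalized counts in batch 2 and 417 in batch 1, against 118 to 141 and 134 at 0 h. In the fit over all libraries it was the 1 of 8 ligands called higher than at 0 h (limma adjusted p = 1.33e-09). Nfkbiz (0.68 ± 0.13) and the kinase Map3k8 (0.60 ± 0.09) also rose then, 1 of 11 and 1 of 25 of their lists, and 0.169% of all genes were called higher. In batch 2 alone the ligand Lta (1.14 ± 0.12, limma adjusted p = 4.3e-05) and the receptor Tnfrsf9 (0.43 ± 0.08, 0.0342) were also called at 0.5 h, against 0.236% of all genes higher. Lta was called there at 2 h too (1.75 ± 0.12, limma adjusted p = 1.01e-07), against 1.78%. At 8 h the ligands Tnf (0.54 ± 0.12) and Fasl (0.48 ± 0.10) were higher than at 0 h, 2 of 8, and the receptors Cd27 (-0.99 ± 0.33) and Tnfrsf4 (-0.69 ± 0.25) lower, 2 of 9. Of 16 ubiquitin-editing partners 2 rose and 5 fell at 8 h, among them the RNA-binding repressors Rc3h2 (-0.53 ± 0.10) and Rc3h1 (-0.38 ± 0.12) and the linear-chain deubiquitinase Otulin (0.43 ± 0.09). Of 25 receptor-complex components 2 rose and 3 fell, among them Cflar (-0.49 ± 0.10), an inhibitor of caspase-8, and the adaptor Tradd (0.48 ± 0.12). At that time 15.9% of all genes were higher and 15.8% lower. With lists this small, the 8 h counts are not read as particular to the pathway.

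Levels also differed between the batches. Batch 2 minus batch 1, within groups, was called for 8 of the 10 genes, where 57.6% of all genes were called. Tnfaip3 (-1.39 ± 0.17), Birc2 (-0.37 ± 0.04) and Ikbke (-0.18 ± 0.05) were lower in batch 2. Traf3 (0.22 ± 0.04), Tnip1 (0.21 ± 0.05), Cyld (0.19 ± 0.03), Zc3h12a (0.14 ± 0.06) and Birc3 (0.11 ± 0.05) were higher, with limma adjusted p of at most 0.0459. Birc3 lost its call under another scaling, TMM (limma adjusted p = 0.0586), and kept it in 13 of 28 fits that left out 1 library, Zc3h12a in 17 of 28 and the other 6 in all 28. Untreated Tnfaip3 ran from 14.6 to 41.5 normalized counts over 11 libraries of batch 2 and from 43.7 to 163 over 5 of batch 1, without overlap. Among other genes of the pathway, the receptor Tnfrsf9 was lower in batch 2 (-0.95 ± 0.05), as was Ctla4 (-3.12 ± 0.10), a Regnase-1 target, and the ligand Tnfsf10 was higher (2.90 ± 0.10), with limma adjusted p of at most 1.72e-13. What differed in the making of the batches is not given in the sources used here.

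**Figure D4:**
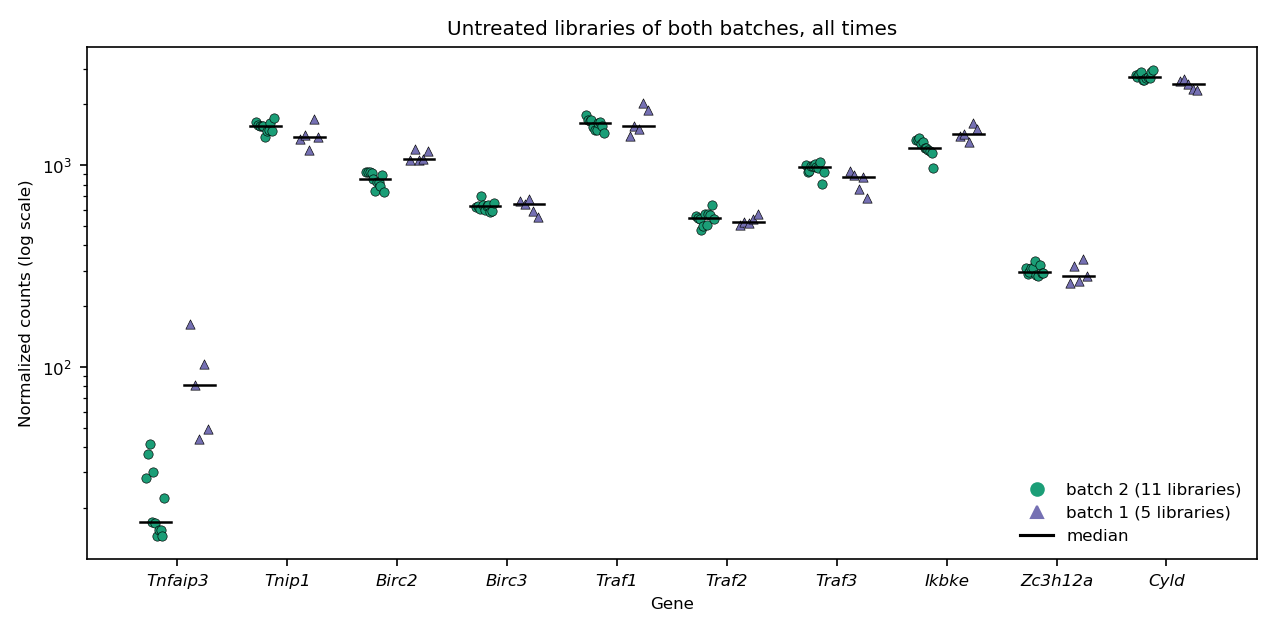
Normalized counts (y axis, log scale) of each gene (x axis) in untreated libraries of batch 2 (circles, 11 libraries) and batch 1 (triangles, 5 libraries), all times together, with the median as a bar. Tnfaip3 shows no overlap between the batches, 14.6 to 41.5 against 43.7 to 163, while Traf2 and Zc3h12a overlap widely.

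Across the 28 libraries, after taking out the mean of each batch, the pairs among the 10 genes with the highest Pearson correlation were Traf1 with Ikbke (0.78), Birc3 with Cyld (0.78) and Tnip1 with Zc3h12a (0.74). Birc2 correlated with Ikbke at 0.53 and with no other of the 10 above 0.45. The 3 genes of the whole table most like Zc3h12a were Nfkb2 (0.86), Nfkbia (0.84) and Psd (0.83), and those most like Tnip1 were Mreg (0.94), Pou2f2 (0.88) and Nfkb2 (0.81). Those most like Traf3 were Hivep1 (0.88), Amotl1 (0.88) and Rapgef1 (0.84), and those most like Ikbke were Psd (0.82), Podnl1 (0.80) and Traf1. Grk2, Tap1 and Parp10 were most like Traf1 (0.83 to 0.80), Irf2bp1, Tcf19 and Them6 most like Traf2 (0.83 to 0.82), and Stag2, Kpna4 and Psip1 most like Cyld (0.80 to 0.79). Lower values were the highest for Birc2 (Aim2, Tmem198b and Zfp40, 0.78 to 0.72), Birc3 (Cyld, Cdc42se2 and Uap1, 0.78 to 0.68) and Tnfaip3 (Fscn1, Zfp516 and Kdm2b, 0.72 to 0.67). These values describe 28 libraries that share treatment and time groups, size factors and depth.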

How the data were processed

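Paired-end TruSeq libraries were made from TRIzol-extracted total RNA of integrity above 8, per the labels' protocols. Build GRCm38.p2 and the tools STAR 2.4.2, CASAVA 1.8.4, R 3.3.2, DESeq2 and featureCounts 1.5.0 are listed without settings, per the submitters' processing notes. The strand setting and annotation release are not given there. The deposited table holds a normalized signal, in which each library's counts were scaled by a single factor (0.401 to 1.59). Within a library all values are multiples of 1 step, and dividing by that step returned whole reads, to within 0.01 read, for 100% of them. Symbols and exon lengths came from GENCODE M21 on GRCm38 (30403 identifiers matched, 23993 with the same version).

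Tests used limma 3.58.1 in R 4.3.3 with a mean-variance trend on log2(normalized count + 1), keeping 14828 genes that reached 10 normalized counts in 3 libraries. Terms were 9 groups and batch (18 residual degrees of freedom). Benjamini-Hochberg adjustment ran over the 14828 genes, and an adjusted p below 0.05 was called. Fold changes on this scale understate changes of low genes, and 95% intervals use limma's standard error. edgeR 4.0.16 (quasi-likelihood) and DESeq2 1.42.0 on the recovered reads, other pseudocounts, filters and scalings, fits without a batch term, without libraries at 10 or more Acta1 or without 1 library were alternatives. On simulated reads, limma recovered 80% of genes changed 1.5-fold and 91% changed 2-fold in the mean exosome effect (5 false calls among 14529 genes), and 62% and 79% at 4 h (4 among 14500). In untreated cells at 8 h it recovered 54% and 82% (7 among 14504). The simulated libraries had 1 mean per gene, no batch or other time differences, and the same fold in both batches. Folds below 1.5 were not simulated, so recovery of smaller changes or of changes in 1 batch is not known. Within groups, the chi-square per degree of freedom between library pairs was 1.32 to 133, so none was merged. The lowest value was that of exosome-treated replicates 1 and 3 at 2 h, both of batch 2, and the next lowest pair had 2.97. Whether these libraries came from separate cultures was not tested. P-values measure the spread between libraries.

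The members and lists were chosen with earlier results of these data known. Named genes are all 10 members, up to 4 called genes per list and comparison with the largest change, and the 3 genes most correlated with each member, leaving out predicted genes and RIKEN clones. Alternatives within batch 2 alone and the effect in each batch were added after seeing the data.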

Additional observations from a re-analysis of the deposited data

Results flagged for a closer look

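In untreated cells at 0 h, replicate 1 stood apart from the other 3 libraries for 2 of the 10 genes, by Dixon's gap test at the 95% level. It is the only batch 1 library of that group. Tnfaip3 had 163 normalized counts in it, against 28.3 to 41.5 in the others, and Birc2 had 1063, against 921 to 929. Chance flags about 1 in 20 groups of this size, and 0 h is the only group large enough to be examined. That rate assumes libraries alike, whereas 57.6% of all genes tested were called between the batches. The share of all genes flagged at 0 h is not given here, so the 2 flags are not read as particular to these genes. Both genes were also higher in batch 1 over all groups, as given above, and the part of batch in these values was not tested apart from that.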

How the results depend on the processing

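The direction of every called gene was kept under every alternative run. The number of the 10 genes called moved as follows. For the mean exosome effect (2 over all libraries) it was 1 with a pseudocount of 5, 0 with a filter at a mean of 50 normalized counts, which removes Tnfaip3 and shortens the list tested, 0 without the batch term, 4 in batch 2 only, 1 without libraries at 10 or more Acta1 and 1 with edgeR. At 4 h (0) it was 4 in batch 2 only. At 8 h (1) it was 0 with the filter at 50, 0 without the batch term, 5 in batch 2 only and 4 with DESeq2. In untreated cells it was 0 at 2 h (1) with no filter, the filter at 50 or no batch term, 1 at 4 h (0) in batch 2 only, and at 8 h (2) 1 with no filter, 1 with the filter at 50, 0 without the batch term and 1, Ikbke, without Acta1 libraries. The interaction (0) was 1 with DESeq2, and the effect in batch 2 (2) was 0 with the filter at 50 and 4 with DESeq2. Within batch 2 alone, leaving out Acta1 libraries gave 3 at 8 h (5), 0 in untreated cells at 2 h (1) and 3 at 4 h (1), where it called 2045 of all genes against 692. Without Acta1 libraries the call at 8 h was Ikbke, and Traf3 was 0.31 (limma adjusted p = 0.7), with 1 untreated library left that is assumed to vary like the others. The causes were not tested.

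Leaving out each library in turn gave 1 to 4 for the mean effect, 0 to 5 at 8 h, 0 to 1, 0 to 1 and 0 to 2 for untreated 2, 4 and 8 h, 6 to 8 for the batch level and 1 to 3 for the effect in batch 2. In batch 2 alone it gave 3 to 7 for the mean effect, 0 to 4 at 4 h, 0 to 6 at 8 h, and 0 to 1, 0 to 1 and 2 to 3 for untreated 2, 4 and 8 h. At 8 h in all libraries it was 0 without untreated or exosome-treated replicate 2, 5 without untreated replicate 3, 2 without exosome-treated replicate 1 and 3 without exosome-treated 4 h replicate 1.

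Replicate numbers cross batches at 2 h, where the 2 same-numbered pairs in different batches had correlations of -0.54 and -0.30 after removing group means. The other 10 pairs, each within a batch, had 0.22 to 0.73, and 8 exosome-treated libraries correlated best with their own number. The rule asked for every pair above 0.1, so the numbers were not taken as pairs. Batch was not taken out in this check, so it cannot tell pairing from batch. With a replicate block the count was 1 for the mean exosome effect (Tnfaip3, limma adjusted p = 0.103, was lost) and 0 for untreated 2 h. In batch 2 alone with the block it was 2 at 4 h, 2 at 8 h and 0, 0 and 1 for untreated 2, 4 and 8 h. Depth limits Tnfaip3 most, with 16 reads in its lowest library.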
